A study of Mus musculus with 12 samples.

Results

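Small nucleolar RNAs (snoRNAs) were examined in mouse liver, as the 56 probe sets whose single gene symbol starts with Snora, Snord or Scarna and a number, out of 34760 probe sets on the array. They carry 54 of the 19937 gene symbols that stand alone on a probe set, since Snora3 and Snora21 have 2 probe sets each. By symbol, 22 probe sets are H/ACA snoRNAs, 31 are C/D snoRNAs and 3 are scaRNAs, the related RNAs of Cajal bodies. A further 22 snoRNA probe sets also carry a second symbol and are not among the members, among them 7 with a Snord116 symbol and the Snord14 and Snord32a probe sets of Hspa8 and Rpl13a.

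RNA from the livers of male mice was run on 12 whole-transcript arrays (Affymetrix Mouse Gene 1.0 ST), 1 per mouse, with 3 mice in each of 4 groups, and the labels give the age as 4 weeks while the methods give a younger one. The groups were Atf7-/- mice conceived by in vitro fertilization (IVF), Atf7-/- mice from natural mating, wild-type (WT) mice conceived by IVF and WT mice from natural mating. ATF7 is a stress-responsive transcription factor of the ATF2 family that binds cAMP-response elements. The labels call the Atf7-/- animals Atf7 mutant, the sources used here name no tissue-specific driver of the mutation, and the background was C57BL6/JJmsSlc. IVF embryos came from superovulated females and were carried by pseudopregnant ICR recipients, so that IVF cannot be told apart here from superovulation, embryo transfer and the recipient's strain. The design asks what IVF does to liver RNA in each genotype, and whether ATF7 has a part in it.

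SnoRNAs guide chemical changes of other RNAs in the nucleolus, where ribosomes are made. C/D snoRNAs pair with ribosomal RNA and direct 2′-O-methylation by fibrillarin, and H/ACA snoRNAs direct pseudouridylation by dyskerin. A few, such as U8 (Snord118), U17 (Snora73a and Snora73b) and U14 (Snord14), are needed for cutting the precursor of ribosomal RNA. Most mammalian snoRNAs are not transcribed on their own but are trimmed out of introns of host genes, many of which encode ribosomal proteins or are noncoding transcripts named Snhg. ScaRNAs act in the same way on the small nuclear RNAs of the spliceosome.

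In the RefSeq gene table (GRCm38.p6), 55 of the 56 members lie within the span of another gene, and Snord118 lies in none. Windows before the start site of 5 host genes are shown because their snoRNAs are among those with the largest differences between groups, or because the bases shown hold the full cAMP-response element. Each is given 5′ to 3′ from base -120 to base -1 (RefSeq, GRCm38.p6). Capitals mark the element TGACGTCA, which reads the same on both strands, and its parts TGACG and CGTCA, which are the same site on opposite strands and lie in every full element. They are Gas5 (chr1:161035046-161035165, plus strand, host of Snord47), Rpl27a (chr7:109519075-109519194, plus strand, host of Snora3), Snhg12 (chr4:132308558-132308677, plus strand, host of Snora44 and Snora16a), Snhg3 (chr4:132353687-132353806, minus strand, host of Snora73a and Snora73b) and Rps12 (chr10:23787210-23787329, minus strand, host of Snora33).
Gas5: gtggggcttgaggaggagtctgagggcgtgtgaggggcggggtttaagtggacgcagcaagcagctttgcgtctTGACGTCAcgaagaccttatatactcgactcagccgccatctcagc
Rpl27a: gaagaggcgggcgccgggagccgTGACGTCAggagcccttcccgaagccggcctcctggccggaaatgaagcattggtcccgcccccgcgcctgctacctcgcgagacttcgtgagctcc
Snhg12: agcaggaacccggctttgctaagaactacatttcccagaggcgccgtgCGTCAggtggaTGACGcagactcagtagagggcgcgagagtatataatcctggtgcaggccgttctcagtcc
Snhg3: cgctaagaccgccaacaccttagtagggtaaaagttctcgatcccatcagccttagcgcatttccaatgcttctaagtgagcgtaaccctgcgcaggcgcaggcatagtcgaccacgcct
Rps12: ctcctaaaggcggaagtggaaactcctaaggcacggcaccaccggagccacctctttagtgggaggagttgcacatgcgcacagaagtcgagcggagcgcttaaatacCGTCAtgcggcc

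The full element starts at base -46 in Gas5 and at base -97 in Rpl27a, and the Snhg3 window holds neither the element nor its parts. In Eef2, host of Snord37, it starts at base 3 of the transcript, outside the bases shown, and Snord37 was not called for ATF7 loss in natural mating (log2 fold change 0.14, adjusted p = 0.893 in limma). In the 300-base windows of the RefSeq table (250 bases before to 50 after a start), the full element was in 3 of 35 host windows (8.57%; Gas5, Rpl27a and Eef2), against 588 of 32851 windows of all genes (1.79%). TGACG or CGTCA was in 16 of 35 host windows (45.7%), against 6837 of 32851 (20.8%). The windows cover 33 of 46 host genes. Host windows were not matched to the windows of all genes by base composition or kind of gene, and the difference in shares was not tested. A match describes the letters only, and binding of ATF7 was not measured on these arrays.

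The 12 arrays had medians from 6.22 to 6.34 over all probe sets on the log2 scale, and arrays of a group correlated at 0.980 to 0.990. The probe set of Atf7 numbered 10433032 averaged 5.52 ± 0.17 in Atf7-/- IVF, 5.96 ± 0.14 in Atf7-/- natural mating, 8.04 ± 0.43 in WT IVF and 8.78 ± 0.18 in WT natural mating (SD, n = 3 each), and was called lower for ATF7 loss in natural mating and in IVF, and with IVF in WT mice (log2 fold change -0.74, adjusted p = 0.0384 in limma). The other Atf7 probe set, 10433034, averaged 8.38 ± 0.08 in Atf7-/- IVF, 8.68 ± 0.07 in Atf7-/- natural mating, 8.76 ± 0.10 in WT IVF and 9.02 ± 0.22 in WT natural mating, and was not called for ATF7 loss (-0.34, adjusted p = 0.0758 in natural mating, and -0.39, adjusted p = 0.721 in IVF). With IVF in WT mice, probe set 10433034 was not called (-0.26, adjusted p = 0.19 in limma). By qRT-PCR and western blot, the study found Atf7 mRNA and protein in liver unchanged by IVF. The place of either probe set relative to the mutation was not analysed here. The 5 hepatocyte markers measured (Alb, Apoa1, Ttr, Cps1 and Tat) were called in none of the 4 pairwise comparisons, with a summed level between 15.66 and 15.83 on every array.

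Over the members, the median level of an array was 7.60 to 7.77 in Atf7-/- IVF livers, 6.86 to 6.99 in Atf7-/- natural mating livers, 7.60 to 7.71 in WT IVF livers and 8.49 to 8.62 in WT natural mating livers. Both IVF groups thus overlapped, the Atf7-/- natural mating arrays lay below them and the WT natural mating arrays above them. Among H/ACA members the array median averaged 7.97 ± 0.29 in Atf7-/- IVF, 6.93 ± 0.08 in Atf7-/- natural mating, 7.91 ± 0.13 in WT IVF and 9.18 ± 0.34 in WT natural mating (SD, n = 3 each). Among C/D members it averaged 7.10 ± 0.13 in Atf7-/- IVF, 6.86 ± 0.00 in Atf7-/- natural mating, 7.08 ± 0.11 in WT IVF and 7.44 ± 0.24 in WT natural mating. WT natural mating had the highest and Atf7-/- natural mating the lowest group mean for 46 of 56 members (82.1%), against 12.1% of all probe sets. The share was 20 of 22 for H/ACA members and 24 of 31 for C/D members. In 21 members (37.5%) all 3 WT natural mating arrays were above, and all 3 Atf7-/- natural mating arrays below, the arrays of both IVF groups, against 0.590% of all probe sets. In whole liver, fewer cells of a type and less RNA per cell cannot be told apart. The signals are those of the RNA recovered, and the recovery of short RNAs was not compared between the groups.

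**Figure D1:**
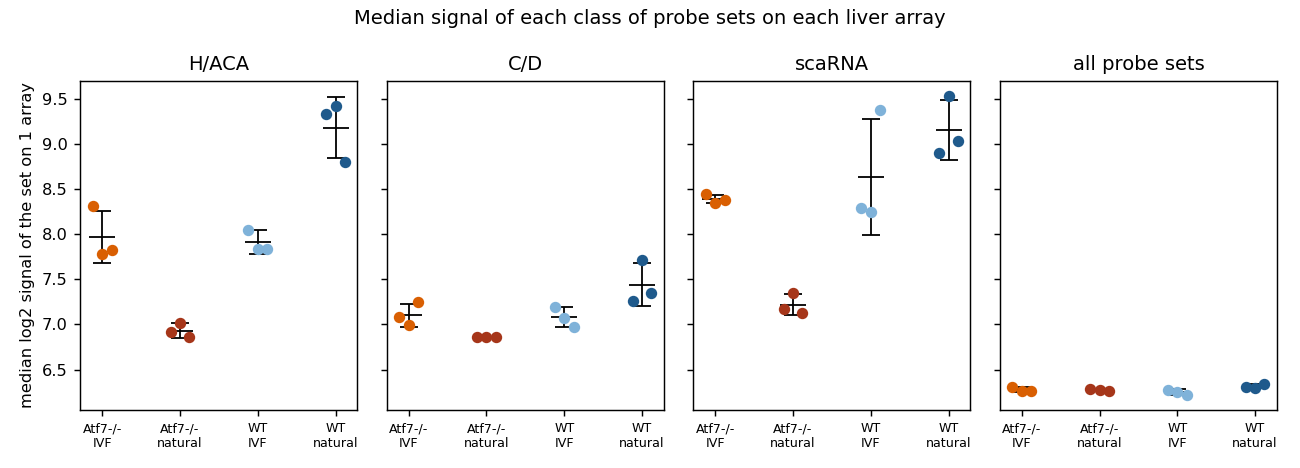
Median log2 signal over H/ACA, C/D and scaRNA probe sets and over all probe sets, with 1 point per array and a bar at the group mean with its SD (n = 3). In H/ACA probe sets the Atf7-/- natural mating arrays sit between 6.86 and 7.01 and the WT natural mating arrays between 8.80 and 9.42, while all probe sets stay between 6.22 and 6.34.

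Loss of ATF7 in naturally mated mice came with lower levels of most snoRNAs. A probe set was called where its p in limma, adjusted over all probe sets by Benjamini and Hochberg, was 0.05 or less and its log2 fold change was 0.6 or more in size. Between Atf7-/- and WT livers from natural mating, 41 of 56 members were called lower, against 3.67% of all probe sets, and 0 were called higher, against 3.83% (0 members were higher at an unadjusted p under 0.05 in limma). The median log2 fold change was -1.23 over the members and -0.02 over all probe sets. H/ACA members had a median of -1.71, with 20 of 22 called lower, and C/D members a median of -1.06, with 20 of 31 called lower. In 49 of 56 members the Atf7-/- arrays all lay below the WT arrays, against 16.3% of all probe sets. Without each array in turn, 37 to 42 members were called lower.

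Snord118 (U8), which in frogs is required for processing of large-subunit ribosomal RNA, showed the largest difference. Its levels were 7.32, 8.38 and 8.11 in Atf7-/- natural mating livers, against 11.14, 12.48 and 12.54 in WT natural mating livers. In IVF livers they were 11.93, 11.75 and 11.68 in Atf7-/- mice and 11.66, 11.50 and 11.50 in WT mice. Only the Atf7-/- natural mating arrays were low, and the WT natural mating arrays spanned both IVF groups. Snord118 was 17.4-fold lower in Atf7-/- than in WT livers from natural mating (log2 fold change -4.12, SE 0.35, adjusted p = 6.53e-05 in limma).

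Snora73a and Snora73b (U17), near-identical H/ACA RNAs of Snhg3 that take part in making the small ribosomal subunit, moved in the same way. Snora73b read 7.79, 8.86 and 7.92 in Atf7-/- natural mating livers, against 11.90, 12.44 and 11.71 in WT natural mating livers. In IVF livers it read 11.40, 11.66 and 11.63 in Atf7-/- mice and 11.43, 11.45 and 11.60 in WT mice. Again the Atf7-/- natural mating arrays alone were low, while the WT natural mating arrays were slightly above all IVF arrays. On the log2 scale, Atf7-/- over WT in natural mating was -3.83 for Snora73b (SE 0.26, adjusted p = 1.93e-05) and -3.82 for Snora73a (SE 0.24, adjusted p = 1.36e-05). The probes of these copies may measure each other's RNA.

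**Figure D2:**
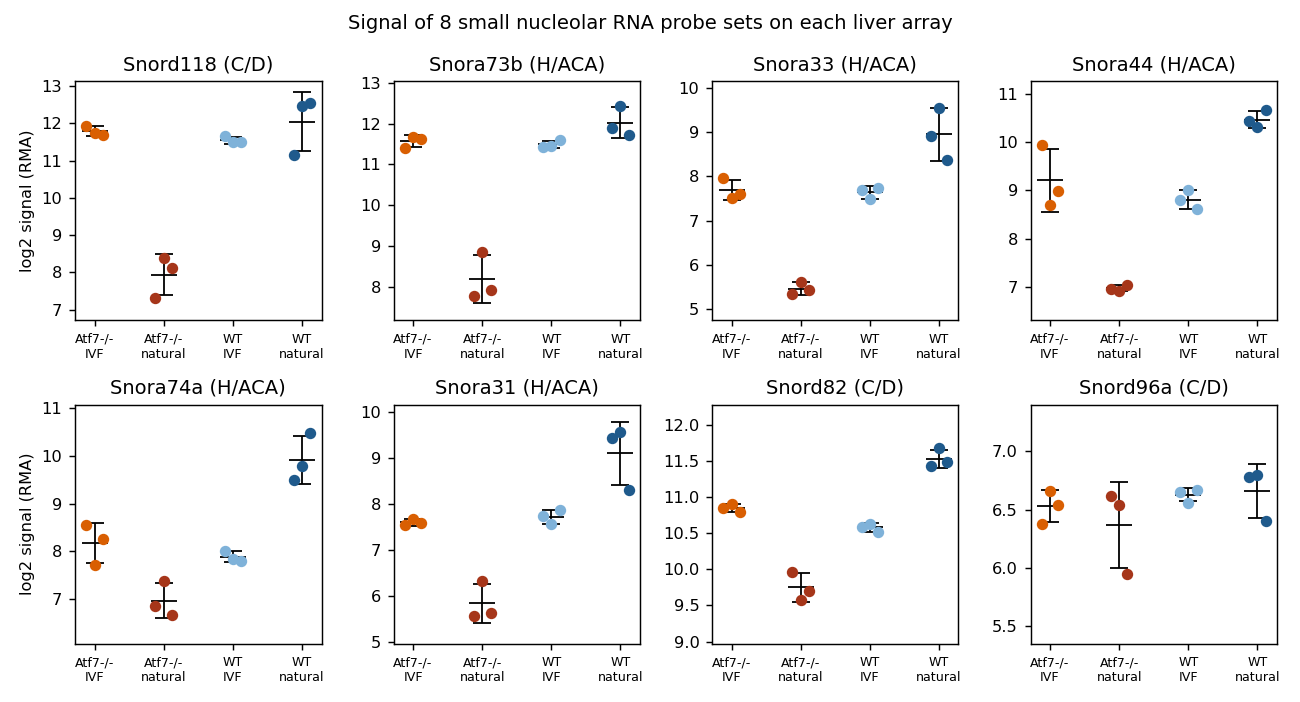
Log2 signal of 8 snoRNA probe sets in each of the 12 livers, with 1 point per array and a bar at the group mean with its SD (n = 3). The vertical scale differs between panels. Snord118 and Snora73b are low in Atf7-/- natural mating livers alone, while Snora33, Snora44, Snora31 and Snora74a are also highest in WT natural mating livers, and Snord96a was called in no comparison.

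The H/ACA guides Snora33, Snora44 and Snora31 were 11.2-, 11.2- and 9.58-fold lower in Atf7-/- than in WT livers from natural mating, and here the WT natural mating arrays were clearly above both IVF groups as well. Snora33, within the ribosomal protein gene Rps12, read 5.35, 5.62 and 5.42 in Atf7-/- natural mating livers, against 8.92, 9.56 and 8.37 in WT natural mating livers. Its IVF levels lay between these, at 7.96, 7.52 and 7.61 in Atf7-/- mice and 7.69, 7.48 and 7.74 in WT mice. The log2 fold change, Atf7-/- over WT in natural mating, was -3.49 (SE 0.24, adjusted p = 2.19e-05), with no overlap between the 2 natural mating groups or between either of them and the IVF groups. Snora44, from the noncoding host Snhg12, read 6.97, 6.92 and 7.05 in Atf7-/- natural mating livers, against 10.43, 10.30 and 10.66 in WT natural mating livers (log2 fold change -3.48, SE 0.25, adjusted p = 2.6e-05). Its IVF levels were 9.94, 8.69 and 8.98 in Atf7-/- mice and 8.81, 9.0 and 8.62 in WT mice, which overlapped. Snora31, within Tpt1, read 5.56, 6.33 and 5.63 in Atf7-/- natural mating livers, against 9.43, 9.56 and 8.31 in WT natural mating livers (log2 fold change -3.26, SE 0.29, adjusted p = 9.73e-05). Its IVF levels lay between these, at 7.54, 7.67 and 7.59 in Atf7-/- mice and 7.73, 7.56 and 7.86 in WT mice.

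The C/D members ranged from -4.12 to 0.14 in this comparison. Snord82, within the nucleolin gene Ncl, had the smallest adjusted p of all members, at 9.97, 9.57 and 9.70 in Atf7-/- natural mating livers against 11.43, 11.68 and 11.49 in WT natural mating livers (log2 fold change -1.79, SE 0.11, adjusted p = 1.16e-05 in limma). It was picked out after its values were seen. Snord15b, within Rps3, had a log2 fold change of -2.74. Of the Rpl13a set, whose C/D RNAs are known from studies of metabolic stress in cultured rodent cells, Snord33 gave -1.46 (SE 0.27, adjusted p = 0.00499) and Snord35a -1.06 (SE 0.21, adjusted p = 0.00616). The Snord32a and Snord34 probe sets, which also carry the symbol Rpl13a and are not members, gave -1.36 (adjusted p = 8.94e-05) and -1.76 (adjusted p = 0.000382). Snord14e, a U14 copy within Hspa8, gave -1.20 (SE 0.32, adjusted p = 0.0293). Other U14 probe sets carry several symbols and are not members. Those of Snord14d and Snord14c gave -1.74 (10584576, adjusted p = 0.00333) and -1.24 (10584578, adjusted p = 0.00891), and that of Snord14a gave 0.31 (adjusted p = 0.302). The call of Snord14e was lost without any 1 of 4 of the 6 arrays compared, at an adjusted p of 0.0594 and 0.108 without Atf7-/- natural mating replicates 1 and 3, and of 0.0548 and 0.0871 without WT natural mating replicates 2 and 3.

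Of the 14 members called in no comparison between natural mating livers or between IVF and natural mating, 11 are C/D RNAs. Snord96a, a methylation guide within Rack1, read 6.62, 6.54 and 5.95 in Atf7-/- natural mating livers, against 6.78, 6.80 and 6.40 in WT natural mating livers, and these overlapped. Snord37, Snord42b and Snord73a, in Eef2, Rpl23a and Rps3a1, had log2 fold changes above 0 for ATF7 loss, of 0.14, 0.11 and 0.13 (adjusted p = 0.893, 0.702 and 0.66 in limma). Snora52 and Snora20 were the H/ACA probe sets not called lower, with -0.41 and -0.58. Of all members, 4 had a mean level under the 25th percentile of the array.

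Among the scaRNAs, Scarna13, within Snhg10, read 7.17, 7.35 and 7.13 in Atf7-/- natural mating livers, against 8.90, 9.53 and 9.03 in WT natural mating livers (log2 fold change -1.94, SE 0.26, adjusted p = 0.00086). Scarna17 gave -0.65 (adjusted p = 0.064) and Scarna8 -0.29 (adjusted p = 0.0811), and neither was called. All 3 were lower on each Atf7-/- array than on each WT array of natural mating. With IVF, Scarna13 was called higher in Atf7-/- mice, at 1.18 (adjusted p = 0.0138), and Scarna17 lower in WT mice, at -1.06 (adjusted p = 0.0135). All 3 were chosen for description after their values were seen.

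Over the members, annotated length and mean level both went with the size of the difference. Of the 21 members under 75 bases 12 were called lower in Atf7-/- livers from natural mating, with a median log2 fold change of -0.90, and of the 8 from 75 to under 100 bases 4 were called lower, with a median of -0.80. Of the 22 members from 100 to under 150 bases 20 were called lower, with a median of -1.68, and of the 5 members of 150 bases or more 5 were called lower, with a median of -2.94. Spearman's correlation of length with the log2 fold change was -0.55 over 56 members, -0.44 over 31 C/D members and -0.18 over 22 H/ACA members. For the mean level over the 12 arrays it was -0.50, -0.59 and -0.31 over the same members. Most H/ACA members are long and most C/D members short, with 21 of 22 H/ACA members at 100 bases or more and 27 of 31 C/D members under 100. The 4 C/D members of 100 bases or more, Snord118, Snord15a, Snord15b and Snord22, were all called lower, with log2 fold changes of -4.12, -1.73, -2.74 and -1.05. These points share the same 6 arrays, and the part of length or level in the difference was not tested.

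**Figure D3:**
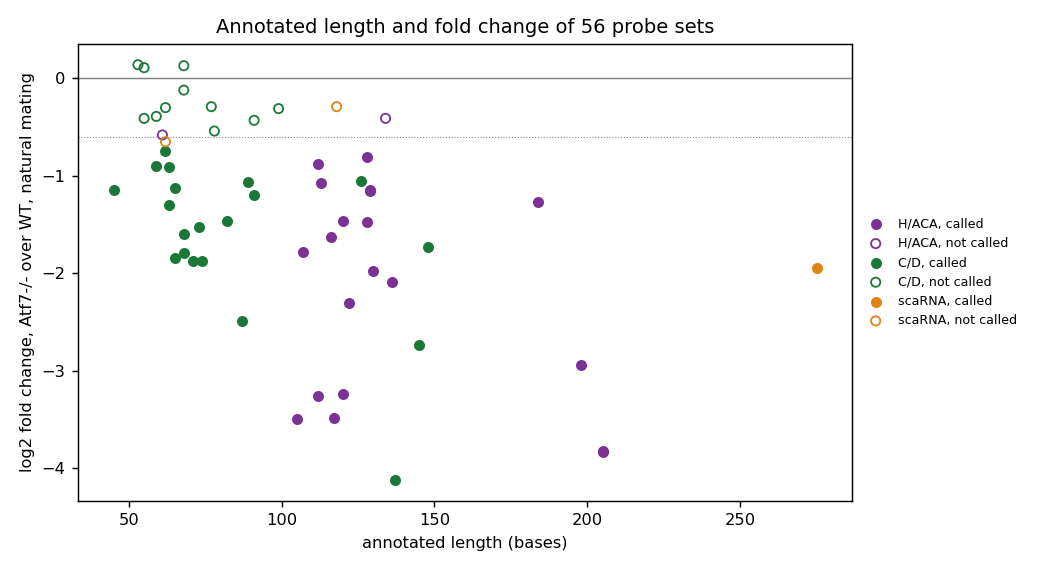
Log2 fold change of each of the 56 snoRNA probe sets, Atf7-/- over WT in natural mating, against the annotated length of the snoRNA in bases, with filled points for called probe sets and the dotted line at the fold minimum of -0.6. Members of 150 bases or more have a median of -2.94 and members under 75 bases a median of -0.90.

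In IVF mice, no snoRNA was called between the genotypes. Of 56 members, 0 were called higher and 0 lower by limma between Atf7-/- and WT IVF livers, against 0% and 0.00575% of all probe sets. The 2 groups of arrays did not overlap in 3 members that were higher and 2 that were lower in Atf7-/- mice, against 5.78% and 5.09% of all probe sets. At an unadjusted p under 0.05, 2 members were higher (Snord53 and Snord82) and 1 was lower (Snord14e, log2 fold change -0.82, adjusted p = 0.783). The median log2 fold change was 0.03 over the members, 0.07 over H/ACA and -0.01 over C/D members, and members ranged from -0.82 to 0.39. For 32 of 56 members the 95% interval of the difference lay wholly within a log2 fold change of 0.6 either way. For the rest it was wider, as for Snord118, whose interval ran from -0.53 to 1.0 around 0.23. In natural mating, in contrast, 41 members were called, and the difference between these 2 effects of ATF7 loss is the same number as the difference between the IVF effects given below.

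**Figure D4:**
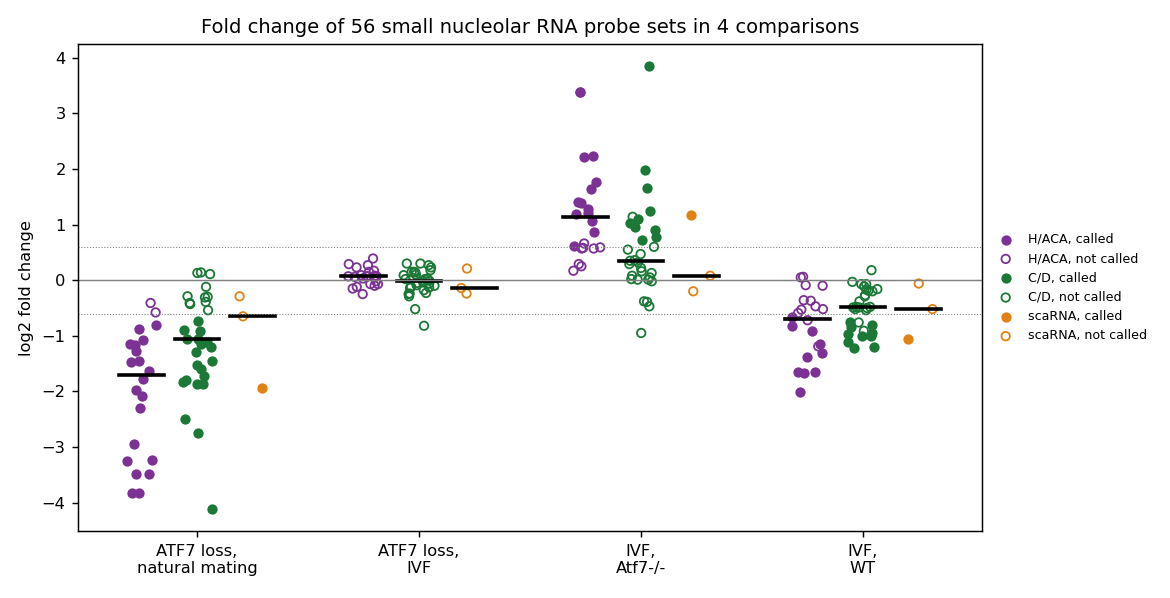
Log2 fold change of the 56 snoRNA probe sets by class in 4 comparisons, Atf7-/- over WT within natural mating and within IVF, and IVF over natural mating within Atf7-/- and within WT mice, with filled points for called probe sets, black bars at class medians and dotted lines at 0.6 and -0.6. Over all 56 members the median is -1.23 for ATF7 loss in natural mating, 0.03 for ATF7 loss in IVF, 0.59 for IVF in Atf7-/- and -0.53 for IVF in WT.

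In Atf7-/- mice, snoRNA levels were higher after IVF than after natural mating. Of 56 members, 25 were called higher, against 3.27% of all probe sets, and 0 were called lower, against 3.51% (2 were lower at an unadjusted p under 0.05 in limma). The median log2 fold change was 0.59 over the members and 0.01 over all probe sets. It was 1.13 among H/ACA members, of which 14 of 22 were called higher, and 0.35 among C/D members, of which 10 of 31 were called higher. The largest were Snord118 at 3.85 (SE 0.35, adjusted p = 0.000159), Snora73a at 3.38 (SE 0.24, adjusted p = 7.43e-05) and Snora73b at 3.38 (SE 0.26, adjusted p = 8.23e-05). Snora33 followed at 2.23 and Snora44 at 2.22. Snord87, a C/D RNA within the spans of Snhg6 and Mcmdc2, read 6.25, 6.96 and 7.25 in Atf7-/- IVF livers, against 4.76, 4.81 and 4.96 in Atf7-/- natural mating livers (log2 fold change 1.98, SE 0.24, adjusted p = 0.000672). All 3 Atf7-/- IVF arrays of Snord87 were above the natural mating arrays, as was the case for 38 of 56 members, against 16.0% of all probe sets. This comparison and that of ATF7 loss in natural mating share the Atf7-/- natural mating arrays, and Snord118, for example, gave 3.85 in the first and -4.12 in the other.

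In WT mice, snoRNA levels were lower after IVF. Of 56 members, 21 were called lower, against 1.67% of all probe sets, and 0 were called higher, against 2.85% (0 were higher at an unadjusted p under 0.05 in limma). The median log2 fold change was -0.53 over the members and -0.04 over all probe sets. It was -0.70 among H/ACA members, of which 10 of 22 were called lower, and -0.49 among C/D members, of which 10 of 31 were called lower. In 36 of 56 members the WT IVF arrays all lay below the WT natural mating arrays, against 15.4% of all probe sets. The WT natural mating arrays also serve the comparison of ATF7 loss in natural mating. A fit of both WT groups alone called 10 members lower, of which 6 were H/ACA and 4 C/D RNAs, and without WT IVF replicate 1 the fit of all groups called 14. The 10 C/D members called lower were 6 without WT IVF replicate 1 or 3.

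Among the members, the largest falls after IVF in WT mice were in H/ACA RNAs. Of the 22 snoRNA probe sets with several symbols, which are not members, 8 were called lower and 0 higher. They include C/D probe sets of Snord116, with log2 fold changes of -2.55 for 10564183 (adjusted p = 0.00758 in limma) and -1.77 for 10564207 (adjusted p = 0.00398). Snora74a (U19), within Snhg4, read 8.02, 7.85 and 7.80 in WT IVF livers, against 9.49, 9.78 and 10.47 in WT natural mating livers (log2 fold change -2.02, SE 0.27, adjusted p = 0.00261). Snora3, a guide within the ribosomal protein gene Rpl27a, read 10.89, 10.84 and 10.37 in WT IVF livers, against 11.89, 12.65 and 12.57 in WT natural mating livers on probe set 10556206 (log2 fold change -1.67, SE 0.25, adjusted p = 0.00407). Its other probe set, 10570432, gave -0.72 (adjusted p = 0.0549). Snora62, within the laminin receptor gene Rpsa, read 6.87, 6.33 and 6.45 in WT IVF livers, against 7.89, 7.82 and 8.91 in WT natural mating livers (log2 fold change -1.66, SE 0.29, adjusted p = 0.0076). For each of these probe sets of Snora74a, Snora3 and Snora62 the groups did not overlap.

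Snora44 at -1.65, Snora31 at -1.38 (adjusted p = 0.0181) and Snora33 at -1.31 (adjusted p = 0.0104) were the next largest log2 fold changes among the members, IVF over natural mating in WT mice. The call of Snora31 was lost without WT IVF replicate 1 or 2 or WT natural mating replicate 1 or 2, at adjusted p values of 0.053, 0.0616, 0.0571 and 0.0631. In contrast to these, Snord118 gave -0.50 (adjusted p = 0.412), Snora73a -0.53 (adjusted p = 0.208) and Snora73b -0.52 (adjusted p = 0.236), which were not called. Without 1 array at a time, Snord118 ran from -0.96 (without WT natural mating replicate 1) to -0.26 (without WT natural mating replicate 3), Snora73a from -0.69 to -0.29 and Snora73b from -0.68 to -0.31, and none was called. Of the Rpl13a set, Snord33 was called at -1.01 (adjusted p = 0.0439) and Snord35a at -0.84 (adjusted p = 0.0309). The Snord32a and Snord34 probe sets, which also carry the symbol Rpl13a and are not members, were called at -1.27 (adjusted p = 0.000551) and -1.23 (adjusted p = 0.00652). Snord33 kept its call without 2 of the 12 arrays only, with adjusted p values up to 0.142 (without WT IVF replicate 3), and Snord35a lost its call without each WT IVF array and without WT natural mating replicate 3, where its log2 fold change was -0.54. In the fit of both WT groups alone Snora33, Snora31, Snord33 and Snord35a were not called, at adjusted p values of 0.0539, 0.0643, 0.071 and 0.112.

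The IVF effect differed between the genotypes for most snoRNAs. The interaction, the IVF effect in Atf7-/- minus that in WT mice, was called above 0 in 35 of 56 members, against 2.72% of all probe sets, and below 0 in 0 members, against 3.46% (0 members were below 0 at an unadjusted p under 0.05 in limma). Its median was 1.37 over the members and 0.03 over all probe sets, 1.80 over H/ACA members, of which 18 of 22 were called, and 1.05 over C/D members, of which 16 of 31 were called. The interaction was 4.35 for Snord118 (SE 0.49, adjusted p = 0.000975), 3.91 for Snora73a (SE 0.34, adjusted p = 0.000282), 3.90 for Snora73b (SE 0.36, adjusted p = 0.000376) and 3.88 for Snora44 (SE 0.36, adjusted p = 0.000374). In Snord118 and Snora73a the IVF effect was larger in size in the Atf7-/- mice, with IVF effects of 3.85 and 3.38 in Atf7-/- against -0.50 and -0.53 in WT mice. In Snora44 both genotypes contributed, with 2.22 in Atf7-/- and -1.65 in WT mice.

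Fewer host genes than snoRNAs were called. A host probe set with 1 symbol was measured for 32 members, in 26 host genes, and the gene table gives no strand, so a host is a gene whose span holds the snoRNA. For ATF7 loss in natural mating, 7 of 26 hosts were called lower (Gas5, Ncl, Rpl23a, Rps12, Rps3, Rps3a1 and Rpsa) and 0 higher (11 lower and 2 higher at an unadjusted p under 0.05 in limma), with a median of -0.20 over the hosts, against 23 of 32 members and a median of -1.23. In 14 pairs the snoRNA was called and its host was not, and in 9 both were called lower. In 3 of the 32 pairs the snoRNA lies within 2 genes, and Snord87 is paired with Mcmdc2, since Snhg6 was not measured with 1 symbol. Over the other 29 pairs, a choice made after the data were seen, these counts were 13 and 8. Tpt1, the host of Snora31, had a log2 fold change of -0.08 (adjusted p = 0.542) beside -3.26 for the snoRNA. Rpl27a had one of -0.19 (adjusted p = 0.352) beside -3.24 and -1.46 for Snora3 probe sets 10556206 and 10570432. Rps12 was called at -1.16 (adjusted p = 0.000163) beside -3.49 for Snora33. Each host value is that of the brightest probe set with its symbol, out of 4 for Tpt1, 9 for Rpl27a, 7 for Rps12 and 10 for Rpl23a. Whether a host's probe set reads the gene copy that holds the snoRNA was not tested, so these host values may come from other copies. With IVF in WT mice 0 of 26 hosts were called in limma, with a median of 0.02, against 14 of 32 members. At an unadjusted p under 0.05, 4 of these hosts were higher and 5 lower. With IVF in Atf7-/- mice 8 hosts were called higher, with a median of 0.26, against 12 of 32 members and a median of 0.59.

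**Figure D5:**
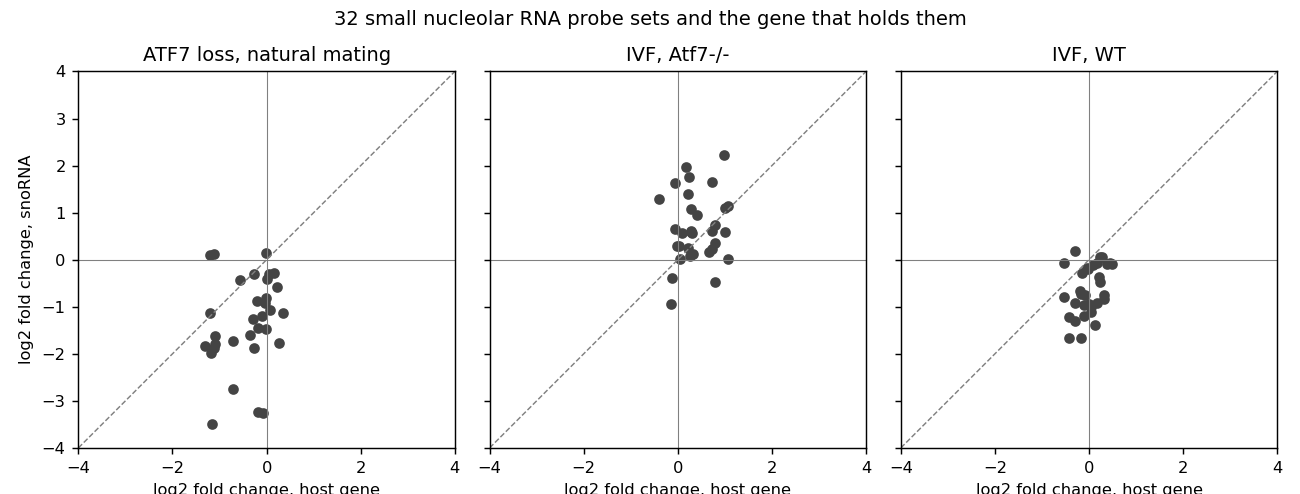
Log2 fold change of 32 snoRNA probe sets against that of the gene whose span holds them, for ATF7 loss in natural mating, IVF in Atf7-/- and IVF in WT mice, with 1 point per pair and a dashed line where both are equal. The brightest probe set with 1 symbol stands for each gene. For ATF7 loss the host median is -0.20 and the snoRNA median -1.23, so that most points lie below the dashed line.

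Rps3a1 and Rpl23a each hold 1 snoRNA that was called for ATF7 loss and 1 that was not, and the difference between them was not tested. Rps3a1 was called lower at -1.12 for ATF7 loss in natural mating (adjusted p = 0.000117), its Snord73b at -1.87 (adjusted p = 0.00913), and its Snord73a gave 0.13 (adjusted p = 0.66). Snord73a averaged only 4.49 in WT natural mating and 4.62 in Atf7-/- natural mating livers. Whether a fall could be seen at this level was not tested. In Rpl23a, which was called at -1.21 (adjusted p = 0.000203), Snord42a was called at -1.14 (adjusted p = 0.00112) while Snord42b gave 0.11 (adjusted p = 0.702). Of the genes named Gas5 or Snhg, 6 had probe sets with 1 symbol, 12 in all, and only Gas5 of these holds a member. Snhg3, Snhg4 and Snhg12, which hold Snora73a and Snora73b, Snora74a and Snora44, were not measured with 1 symbol. For ATF7 loss in natural mating, 5 of the 12 were called lower, against 3.67% of all probe sets, and 0 higher, against 3.83%. Those called lower belong to Gas5, Snhg17 and Snhg5. The brightest Gas5 probe set read 8.19, 8.06 and 8.26 in Atf7-/- natural mating livers, against 9.62, 9.41 and 9.41 in WT natural mating livers (log2 fold change -1.31, SE 0.11, adjusted p = 7.38e-05). Whether these probe sets also hold probes to snoRNAs within the hosts was not tested.

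A few genes of snoRNA-binding proteins were called, in both directions. Of 27 genes of snoRNA-protein particles and their assembly, 3 were called higher for ATF7 loss in natural mating, against 3.83% of all probe sets. Another 2 were called lower, against 3.67%, and the median log2 fold change over the 27 was 0.04. Whether such counts differ from the shares of all probe sets was not tested. Those called lower were Fbl, the methyltransferase fibrillarin of C/D particles, at -0.67 (adjusted p = 0.00238) and Nop10, a core H/ACA protein, at -0.68 (adjusted p = 0.00166). Dkc1, the pseudouridine synthase dyskerin, was called higher at 0.76 (adjusted p = 0.00831), as were Imp3 and Imp4, partners of the U3 snoRNA, at 0.63 and 0.87. The other core C/D proteins, Nop56, Nop58 and Snu13, gave -0.03, -0.13 and -0.15, and the other core H/ACA proteins, Nhp2 and Gar1, gave -0.28 and -0.40. With IVF in WT mice 1 of the 27 was called higher (Dkc1 at 0.70), against 2.85% of all probe sets. With IVF in Atf7-/- mice 2 were called lower (Nolc1 at -0.83 and Imp4 at -0.70), against 3.51% of all probe sets.

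Several other short RNAs had the same order of groups. Of 14 probe sets of small nuclear, RNase P, RNase MRP, Y, 7SK and telomerase RNAs, a list made after the members' values were seen, 7 were called lower for ATF7 loss in natural mating, with a median log2 fold change of -0.60. They include Rmrp, the RNA of RNase MRP, at -1.69 and Rnu12, the U12 RNA of the minor spliceosome, at -1.55. Rnu3a, a copy of the U3 snoRNA that the symbol rule does not take, gave the largest fall of the 14, at -2.04. Of the snoRNA probe sets with several symbols, 11 of 22 were called lower, with a median of -1.13. Of 299 microRNA probe sets, 5 were called lower and 3 higher, with a median of -0.04.

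Some Kupffer cell markers were lower, as most snoRNAs were, for ATF7 loss in natural mating. Of 5 markers, Clec4f, Cd5l and Marco were called lower for ATF7 loss in natural mating, at -0.95, -1.04 and -1.10, Vsig4 was called higher at 0.62, and Timd4 gave -0.39 (adjusted p = 0.25). Marco read 6.13, 5.86 and 6.39 in Atf7-/- natural mating livers, against 6.41, 7.24 and 8.02 in WT natural mating livers. The summed level of the 5 Kupffer markers was 11.86 to 12.09 on the log2 scale in Atf7-/- natural mating livers, against 12.03 to 12.55 in WT natural mating livers. Of 4 endothelial markers Clec4g was called higher, at 1.0, and of 4 bile duct markers Krt19, at 0.60. Markers of stellate cells, erythroid cells and lymphocytes had medians of 0.35, 0.02 and 0.19 with no call. With IVF in WT mice, Cd5l was called lower, at -0.74, and Clec4g, the stellate cell marker Reln and the B cell marker Ms4a1 higher, at 0.75, 0.79 and 0.93. With IVF in Atf7-/- mice, 0 of the 5 Kupffer markers were called, with a median of 0.12. The lymphocyte markers Cd3g and Ms4a1 were called higher there, at 0.74 and 0.71. The part of these cells in the snoRNA differences was not tested.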

How the data were processed

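Each of 12 male mice gave total liver RNA for 1 Affymetrix array. Per the methods, no mother or recipient gave more than 1 mouse to a group. The log2 values deposited by the authors were made from the scans by RMA in affy, and they were not altered here. Tool versions and genome build: not given in the sources used here. Background probes were not used. Precision is limited by the number of arrays. Levels of different probe sets were not compared as results, apart from the correlation of mean level with fold change. Mean level also served to choose a host's probe set and for the dim filter.

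Members were the probe sets with 1 symbol in the platform annotation (21640 of 34760; 1321 carry several and 11799 none) that starts with Snora, Snord or Scarna and a digit. All 56 matched a RefSeq gene table (GRCm38.p6) by Entrez identifier. This table gave lengths and hosts, but no strand, so hosts were taken by span on either strand, and the brightest probe set with 1 symbol stood for a host. Start windows came from RefSeq. Sequences of the snoRNAs themselves were not used here. Probe sets may also detect unspliced host introns.

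The fit took all 12 arrays and used limma 3.58.1 (R 4.3.3) with group means, empirical Bayes variances and 8 residual degrees of freedom. P-values were adjusted by Benjamini-Hochberg over all 34760 probe sets. As in the study's methods, calls needed an adjusted p no higher than 0.05 and a log2 fold change of 0.6 or more in either direction. The step was first tested on simulated data. Groups follow the sample labels. Figures were drawn with matplotlib 3.10.9 in Python 3.11.15.

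Members, lists and tests were chosen with earlier results of these data known. Described were up to 6 called members with the largest change in each direction of each comparison and up to 4 for the interaction, set families such as U8, U14, U17 and the Rpl13a set, their hosts and the core proteins. Lists held snoRNA-binding and assembly proteins and liver cell type markers. Alternatives were a fit of the compared groups alone, array weights, a block for the replicate number, median centring, robust variances with an intensity trend, further quantile normalization, a dim filter at the 25th percentile, only probe sets with 1 symbol, other thresholds, the removal of each array and 1 probe set per symbol.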

Additional observations from a re-analysis of the deposited data

Results flagged for a closer look

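The effect of IVF differed between the genotypes, by limma's interaction (IVF effect in Atf7-/- minus that in WT, log2 scale), in 11 of the described members. Snord118 had an interaction of 4.35 (SE 0.49, adjusted p = 0.000975), from 3.85 in Atf7-/- and -0.50 in WT mice. For Snora73a it was 3.91 (adjusted p = 0.000282), from 3.38 and -0.53, and for Snora73b 3.90 (adjusted p = 0.000376), from 3.38 and -0.52. Snord87 had 2.16 (adjusted p = 0.00488), from 1.98 in Atf7-/- and -0.19 in WT mice. In these 4 members the IVF effect in WT mice was not called, and that of Snord118 ran from -0.96 to -0.26 without 1 array at a time.

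In a second set the effects had opposite directions and both were called. Snora44 had an interaction of 3.88 (adjusted p = 0.000374), from 2.22 in Atf7-/- and -1.65 in WT mice. Snora33 had 3.54 (adjusted p = 0.000423), from 2.23 and -1.31, and Snora31 had 3.14 (adjusted p = 0.00218), from 1.76 and -1.38. Snora3 (probe set 10556206) had 3.31 (adjusted p = 0.000749), from 1.64 and -1.67, and Snora74a had 3.23 (adjusted p = 0.00133), from 1.21 and -2.02. The other Snora3 probe set, 10570432, had an interaction of 1.39 (adjusted p = 0.0178), from 0.66 and -0.72. Neither of its IVF effects was called (adjusted p = 0.059 in Atf7-/- and 0.0549 in WT mice). The call of Snora74a for IVF in Atf7-/- mice was lost without Atf7-/- IVF replicate 3 or Atf7-/- natural mating replicate 1 or 3, at an adjusted p of 0.0558, 0.0537 and 0.0593. That of Snora31 for IVF in WT mice was lost without any 1 of 4 WT arrays, and that of Snora33 in the fit of both WT groups alone (adjusted p = 0.0539).

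In Snora62 and Snord33 only the WT effect was called. Snora62 had an interaction of 1.83 (adjusted p = 0.0217), from 0.17 in Atf7-/- and -1.66 in WT mice, and Snord33 had 1.48 (adjusted p = 0.0424), from 0.47 and -1.01. The interaction of Snora62 was not called without Atf7-/- natural mating replicate 1 or 3 or WT IVF replicate 2 or 3, with the adjusted p at most 0.0564. That of Snord33 was lost in most fits with an array left out, with the adjusted p up to 0.0942. Groups of 3 arrays are too small for the test of single outlying arrays.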

How the results depend on the processing

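Of 1163 values of described members under the alternatives, 1108 kept direction and call, 46 lost the call, 4 gained it and 5 reversed. The members called lower with IVF in WT numbered 10 in a fit of both WT groups alone and 9 at an adjusted p of at most 0.01, against 21, and ranged from 14 to 21 without each array. The members with a called interaction numbered 23 at an adjusted p of at most 0.01, against 35. The median interaction, 1.37, was 1.29 with each array centred on its median and 1.45 over probe sets at or above the 25th percentile of mean level, where the median for ATF7 loss in natural mating was -1.38 against -1.23. Without each array, the median interaction ranged from 1.23 to 1.52, that for ATF7 loss from -1.40 to -1.16, and that for IVF in WT from -0.62 to -0.49. The reversals were all of Snord33 for ATF7 loss in IVF, at 0.02 and not called. It was -0.11 with array weights, -0.02 with median centring, and from -0.21 to 0.31 without each array. The cause was not tested. Deviations of arrays with the same replicate number correlated at r from -0.12 to 0.24 over 18 pairs (median 0.02, 3 over 0.1). With different numbers, r ran from -0.20 to 0.19 over 36 pairs (median -0.02, 3 over 0.1). Of 12 arrays, 5 correlated best with their own number. These few pairs cannot show whether arrays with the same replicate number share a deviation. With the number as a replicate block, 20 members were called lower with IVF in WT, 25 higher with IVF in Atf7-/-, 41 lower with ATF7 loss in natural mating and 33 in the interaction, and Snord14e lost its call for ATF7 loss. Of the members called for ATF7 loss in natural mating, 37 of 41 kept the call without each array, and for IVF in WT 13 of 21. Of the 56 members, 4 had a mean level under the 25th percentile of all probe sets.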
